A study of Mus musculus with 3 samples.

Results

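Claudins, the other membrane proteins and scaffolds of the tight junction, and the connexins and pannexins were read in 3 mouse epithelia. The genes were taken by symbol, and 62 of the 22609 gene symbols in the deposited table were members. They comprised 25 claudins, 4 genes of occludin and its MARVEL relatives, 4 genes of the JAM family, 6 scaffold and polarity genes of the junctional plaque, 20 connexins and 3 pannexins. All mice were of the C57BL/6 strain. Medullary thymic epithelial cells (mTEC, the inner thymic epithelium that displays proteins of other tissues to maturing T cells) and cortical thymic epithelial cells (cTEC, the outer thymic epithelium where immature T cells are selected) were purified from 14 thymi, pooled, at 7 days of age. Epidermal keratinocytes (skinEC) were taken from trunk and back skin of 7 newborns, also pooled. Both thymic populations were CD45- and EpCAM+. The mTEC gate was Ly51- and positive for the lectin UEA1, the cTEC gate was Ly51+ and UEA1-, and the skinEC gate was EpCAM+ and CD11c-. In comparisons with skinEC, tissue and age cannot be told apart.

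Tight junctions seal the space between neighbouring epithelial cells. Claudins form the strands of the seal and set which ions and molecules pass, occludin and tricellulin stabilise contacts where cells meet, and ZO proteins anchor the strands to actin. Connexins form gap junction channels that join the cytoplasm of adjacent cells, and pannexins form channels to the cell exterior. In the epidermis the seal lies in the granular layer, and claudins of the simple epithelium type mark the medullary lineage in the embryonic thymus.

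Each population gave 1 library, so no difference had a replicate check and no test between populations was possible. Levels are RPKM, which corrects reads for gene length and for the size of the library, so genes can be compared with each other. The low values implied depths of about 55500000 reads in mTEC, 56600000 in cTEC and 56000000 in skinEC, at which 3 reads on a gene of 1 kb equal 0.0541 RPKM in mTEC, 0.0530 RPKM in cTEC and 0.0536 RPKM in skinEC. The skinEC depth rests on 12 genes and is the least certain. Differences are log2 ratios of RPKM + 1, and the rule for calling a gene higher or lower was a size of 2 or more (4-fold on that scale). In these bulk samples, fewer cells of a type and less RNA per cell cannot be told apart. Summed cortical and keratinocyte markers were highest in the libraries so labelled, and summed medullary markers were not. Summed RPKM of 8 cortical markers was 565 in mTEC, 6628 in cTEC and 8.32 in skinEC. Summed RPKM of 10 keratinocyte markers was 974 in mTEC, 189 in cTEC and 36001 in skinEC. Of these 10, 7 were past the rule as lower in mTEC than in skinEC and 0 the other way. Within the rule, Lor (38.0 RPKM in mTEC, 30.3 RPKM in skinEC) and Ivl (9.03 RPKM in mTEC, 8.50 RPKM in skinEC) were higher in mTEC. The 9 medullary markers summed to 2458 RPKM in mTEC, 81.7 RPKM in cTEC and 25692 RPKM in skinEC, and hold Krt5 and Krt14, which keratinocytes also express. Aire, the medullary regulator of self-antigen expression, was at 1129 RPKM in mTEC, 1.20 RPKM in cTEC and 0.148 RPKM in skinEC.

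The junction genes were most widely detected in mTEC. At 1 RPKM or more there were 45 of 62 members in mTEC (72.6%), 24 in cTEC (38.7%) and 25 in skinEC (40.3%). Over all 22609 symbols the shares were 72.4% in mTEC, 55.7% in cTEC and 53.5% in skinEC, so the members' share was close to that of all genes in mTEC and below it in cTEC and skinEC. In mTEC alone 15 members reached this level (24.2% of 62, against 14.7% of all symbols), among them 11 claudins and 4 connexins. Of the 62 members, 46 reached 1 RPKM in some library, 16 did not, 24 reached 10 RPKM, and 7, among them Marveld1, F11r, Pard3, Tjp1, Gja1 and Panx1, were at 10 RPKM or more in all 3. Cldn24 is listed at 0 in all 3 libraries.

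The mTEC library was set against cTEC to compare the medullary and cortical branches of thymic epithelium. Of the 62 members, 15 were at least 4-fold higher in mTEC than in cTEC (24.2%), against 15.2% of the 16869 genes that reached 1 RPKM in some library and 11.4% of all symbols. They were Cldn1, Cldn3, Cldn4, Cldn7, Cldn9, Cldn13, Cldn23, Ocln, Marveld2, Marveld3, F11r, Tjp3, Gja4, Gjb2 and Gjb6. Cldn13 is listed at 0 in cTEC, so the size of its ratio rests on the pseudocount. The 1 lower member was Cldn8, beside backgrounds of 2.69% of those genes and 2.01% of all symbols. Over the 46 members that reached 1 RPKM the median was 1.34 on the log2 scale, and over all genes that did it was 0.08. Of the 46 members, 15 reached that level in mTEC alone, as did 3326 of the 16869 genes. Ratios of such genes are above 0 by the filter itself. The 2 medians were therefore not selected alike, and their gap is no support for a shift of the family. With a pseudocount of 5 RPKM, Cldn1, Cldn9, Cldn23, Ocln, Marveld3 and Gjb6 were no longer past the rule.

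The mTEC library was next set against skinEC, an epithelium outside the thymus. Here 13 members were higher in mTEC (21.0% of 62), against 16.8% of the genes that reached 1 RPKM and 12.5% of all symbols. They were Cldn3, Cldn4, Cldn6, Cldn7, Cldn9, Cldn10, Cldn13, Cldn23, Marveld2, Esam, Cgn, Tjp3 and Gja4. Cldn9 is listed at 0 in skinEC, so the size of its ratio likewise rests on the pseudocount. With a pseudocount of 5 RPKM, 6 of the 13 (Cldn3, Cldn4, Cldn7, Cldn13, Tjp3 and Gja4) still passed. The 4 lower members, Cldn1 and Gja1 among them, stood beside backgrounds of 4.2% and 3.13%. The split of 13 higher to 4 lower became 18 to 2 under scaling by the median of ratios and 23 to 3 with each library rescaled to the same sum. That rescaling also enlarged the values while the pseudocount stayed at 1 RPKM, so it lowered the weight of the pseudocount too. With sums made equal without the 50 largest genes the split was 15 to 3. The share of all genes past the rule was not computed under these scalings. Gja1 (log2 ratio -2.002) was at the edge of the rule and within 4-fold under each of the 3 other scalings, and Cldn1 under 1 of them.

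Between cTEC and skinEC, the 1 higher member was Cgn, beside backgrounds of 6.3% and 4.7%. Lower in cTEC were 8 members (12.9% of 62), among them Cldn1, Marveld3, Gja1, Gjb2, Gjb5 and Gjb6, against 5.82% of the genes that reached 1 RPKM and 4.34% of all symbols. Of the 8, 6 were connexins, and Gjb5 is listed at 0 in cTEC. Marveld3 and Gjb5 were within 4-fold under 2 of the 3 other scalings. The split of 1 higher to 8 lower became 3 to 8 with each library rescaled to the same sum. That setting also enlarged the values against the pseudocount, and the share of all genes was not computed under it.

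**Figure D1:**
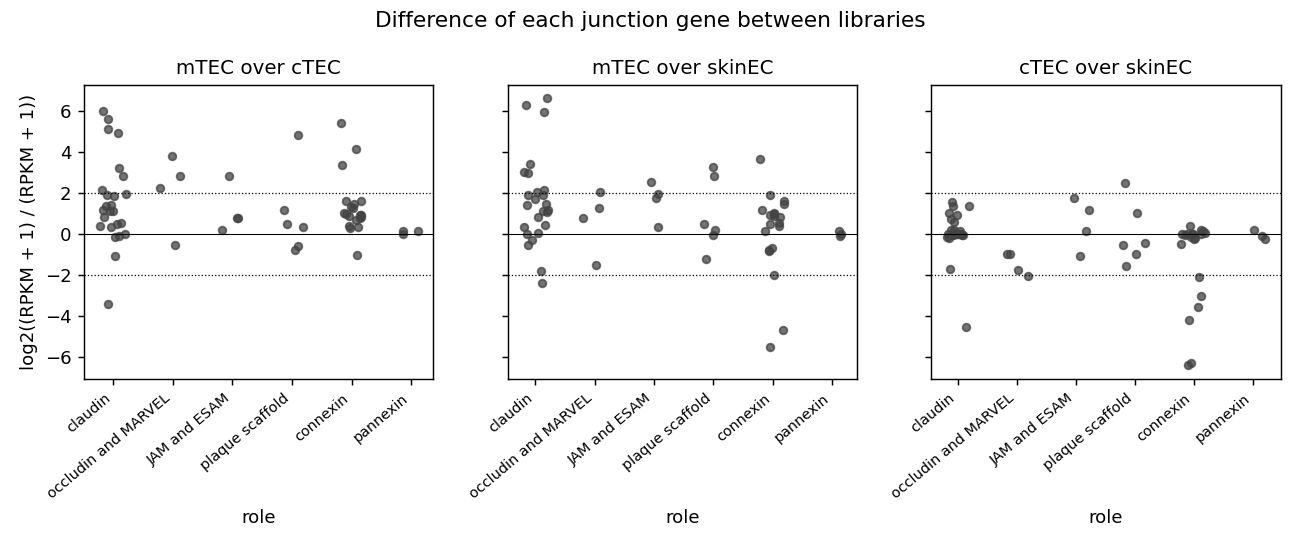
Log2 ratio of RPKM + 1 for each of the 62 members, by role, for mTEC over cTEC, mTEC over skinEC and cTEC over skinEC (1 library each); points above 0 are higher in the library named before "over", and dotted lines mark the 4-fold rule. The highest point of the panel of mTEC over skinEC is a claudin, Cldn7 (6.63).

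Claudins were the group with the largest summed level in mTEC. The 25 claudins summed to 612 RPKM in mTEC, 57.7 RPKM in cTEC and 147 RPKM in skinEC, and a different claudin led each library. In mTEC these were Cldn4 with 31.4% of the claudin sum, Cldn7 with 27.9% and Cldn3 with 18.02%. In cTEC Cldn8 held 47.9% and Cldn12 17.2%. In skinEC Cldn1 held 75.2% and Cldn4 11.7%.

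**Figure D2:**
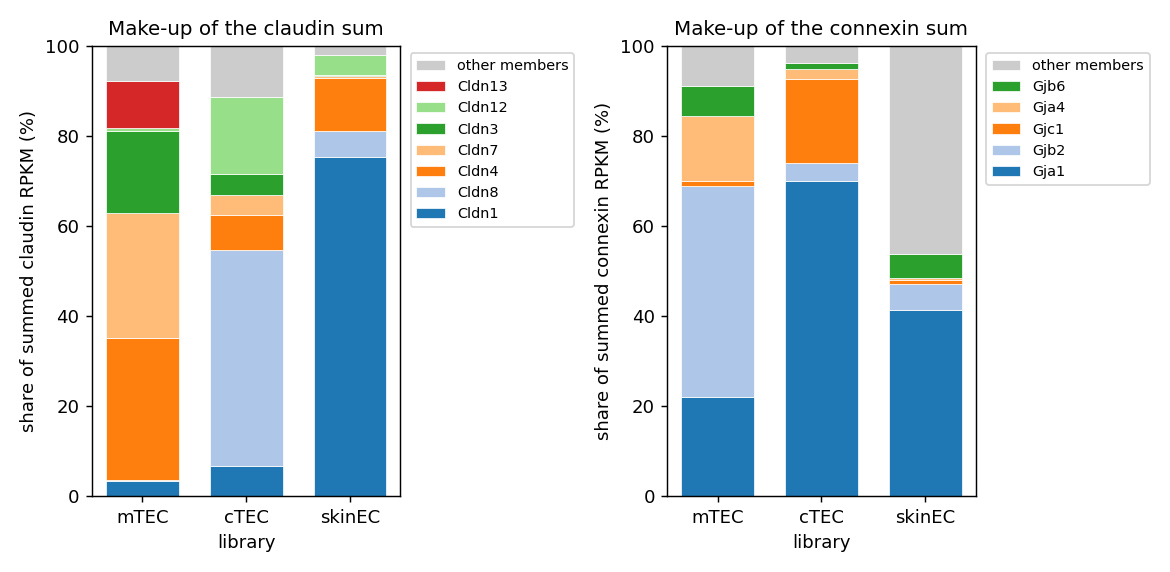
Share of the summed claudin RPKM (left) and connexin RPKM (right) held by each gene in the mTEC, cTEC and skinEC library (1 library each, in percent); the genes in the legend have a colour of their own, and grey is all other members. Cldn4, Cldn7 and Cldn3 fill 77.4% of the mTEC claudin bar, Cldn8 fills 47.9% of the cTEC bar and Cldn1 75.2% of the skinEC bar.

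Cldn3 and Cldn4, which encode the receptors of a clostridial enterotoxin and are typical of simple epithelia, lie next to each other on chromosome 5 with no other protein-coding gene between them. Cldn4 was at 192 RPKM in mTEC, 4.56 RPKM in cTEC and 17.2 RPKM in skinEC. Cldn3 was at 110.3 RPKM in mTEC, 2.60 RPKM in cTEC and 0.397 RPKM in skinEC. Both were far above the other libraries in mTEC, by 42.1-fold for Cldn4 and 42.4-fold for Cldn3 in RPKM over cTEC, while in skinEC Cldn4 was present and Cldn3 was under 1 RPKM. Cldn7, a claudin that binds EpCAM, was at 171 RPKM in mTEC, 2.56 RPKM in cTEC and 0.739 RPKM in skinEC, a log2 ratio of 5.59 over cTEC and 6.63 over skinEC. Cldn13, a claudin that mice have and humans lack, was at 63.9 RPKM in mTEC, against 0.0335 RPKM in skinEC, and is listed at 0 in cTEC. It is on chromosome 5 as well.

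The start regions of Cldn3 and Cldn4, high together in mTEC, are shown with those of Cldn7 and of Cldn1, the leading claudin of skinEC. Each window holds 250 bases before and 50 after the annotated start, from RefSeq on GRCm38.p6, read in the direction of transcription. Capitals mark the letters CANNTG, the E-box core bound by factors of the basic helix-loop-helix and Snail and Zeb families. For Cldn7, which has 2 annotated starts, the outer one is given.
Cldn3 promoter, chr5:134985964-134986263, + strand: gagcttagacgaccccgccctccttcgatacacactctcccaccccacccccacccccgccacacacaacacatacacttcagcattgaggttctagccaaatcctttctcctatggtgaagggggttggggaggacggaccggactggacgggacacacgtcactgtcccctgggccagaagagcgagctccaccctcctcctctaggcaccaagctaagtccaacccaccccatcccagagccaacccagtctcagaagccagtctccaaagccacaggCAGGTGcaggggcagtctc
Cldn4 promoter, chr5:134946885-134947184, - strand: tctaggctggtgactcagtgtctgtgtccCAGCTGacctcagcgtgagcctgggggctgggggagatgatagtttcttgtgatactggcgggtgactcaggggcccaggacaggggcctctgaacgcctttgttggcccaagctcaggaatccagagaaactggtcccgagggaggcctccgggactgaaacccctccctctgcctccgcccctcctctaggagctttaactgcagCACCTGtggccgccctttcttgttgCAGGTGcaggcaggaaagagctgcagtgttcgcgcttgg
Cldn7 promoter, chr11:69964529-69964828, + strand: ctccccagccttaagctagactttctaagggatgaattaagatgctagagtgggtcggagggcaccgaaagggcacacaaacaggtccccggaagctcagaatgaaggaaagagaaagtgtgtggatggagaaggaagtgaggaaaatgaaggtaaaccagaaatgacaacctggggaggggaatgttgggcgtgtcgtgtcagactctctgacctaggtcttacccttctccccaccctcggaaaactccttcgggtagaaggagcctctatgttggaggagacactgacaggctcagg
Cldn1 promoter, chr16:26371790-26372089, - strand: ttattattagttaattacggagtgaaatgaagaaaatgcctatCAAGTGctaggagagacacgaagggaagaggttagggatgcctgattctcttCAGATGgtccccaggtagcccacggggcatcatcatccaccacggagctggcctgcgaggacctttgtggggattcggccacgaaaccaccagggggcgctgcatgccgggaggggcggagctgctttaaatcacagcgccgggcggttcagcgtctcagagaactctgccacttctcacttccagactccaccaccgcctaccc
Both strands were searched. The CAGGTG form of the E-box, a subset of CANNTG that was picked after these windows were seen, began at position 32 from the start in Cldn3. In Cldn4 it began at position 12, and at position -14 on the opposite strand, where it reads CACCTG. The printed Cldn7 and Cldn1 windows did not hold it, though the window of the other Cldn7 start did. RefSeq windows matched 42 of the 62 members, and 15 of them (35.7%) held CAGGTG in at least 1 window, against 22.6% of all 27025 genes with a window. Cldn3 and Cldn4, after whose windows this form was picked, are among the 15, so these shares are no test of enrichment. CANNTG was in 73.8% of the 42 and 74.99% of all, and TATAAA, the TATA box, in 16.7% and 15.7%. AACCGGTT, the site of grainyhead factors, was in 0 of the 42 and in 0.174% of all. These matches are descriptions of letters in a window.

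Other claudins led in skinEC and cTEC. Cldn1, without which newborn mice lose water through the epidermis, was at 20.7 RPKM in mTEC, 3.89 RPKM in cTEC and 111 RPKM in skinEC. It was past the rule in mTEC over cTEC (log2 ratio 2.15) and lower than skinEC in mTEC (-2.37) and in cTEC (-4.51). Cldn8, a claudin of the distal nephron that controls chloride passage, was at 1.74 RPKM in mTEC, 27.7 RPKM in cTEC and 8.62 RPKM in skinEC. Its log2 ratio was -3.39 for mTEC over cTEC. Cldn12, which lacks the usual binding motif for ZO proteins, was at 4.14 RPKM in mTEC, 9.93 RPKM in cTEC and 6.37 RPKM in skinEC, within 4-fold throughout. In gene order 21 members formed 9 runs of neighbours, and the abundant gene of a run did not always have an abundant neighbour. Cldn8 lies beside Cldn17 and Cldn1 beside Cldn16 on chromosome 16, and neither Cldn17 nor Cldn16 reached 1 RPKM in any library.

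Among lower claudins, Cldn23 was at 12.9 RPKM in mTEC, 0.506 RPKM in cTEC and 0.706 RPKM in skinEC. Cldn9, a claudin needed for hearing in mice, was at 7.01 RPKM in mTEC, against 0.135 RPKM in cTEC, and is listed at 0 in skinEC. Both were under 1 RPKM outside mTEC. The neighbour of Cldn9, Cldn6, known from embryonic epithelia, was at 4.84 RPKM in mTEC, 0.528 RPKM in cTEC and 0.333 RPKM in skinEC. Cldn10, which forms ion-selective pores in the kidney, was at 5.38 RPKM in mTEC, 1.499 RPKM in cTEC and 0.523 RPKM in skinEC. Each was highest in mTEC. The pore-forming Cldn2 was at 2.76 RPKM in mTEC, against 0.0231 RPKM in cTEC, and is listed at 0 in skinEC. Claudins known mainly from other organs were detected at low levels in mTEC. The gastric and lung gene Cldn18 was at 1.23 RPKM, the inner ear gene Cldn14 at 1.71 RPKM and the renal genes Cldn16 and Cldn19 at 0.800 and 1.19 RPKM, all in mTEC, and these 4 are listed at 0 in cTEC and skinEC. Cldn15, a pore-forming claudin of the intestine, was at 1.35 RPKM in mTEC, 0.0764 RPKM in cTEC and 0.126 RPKM in skinEC. Cldn20, which overlaps Tfb1m, was at 1.58 RPKM in mTEC, 1.02 RPKM in cTEC and 1.06 RPKM in skinEC. The symbols Cldn26 (2.71 RPKM in mTEC) and Cldn27 (0.386 RPKM in mTEC), now named Tmem114 and Tmem235, are listed at 0 in cTEC, and Cldn27 was at 0.0197 RPKM in skinEC, where Cldn26 is listed at 0. Cldn17 and Cldn22 were under 0.3 RPKM in all 3 libraries.

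**Figure D3:**
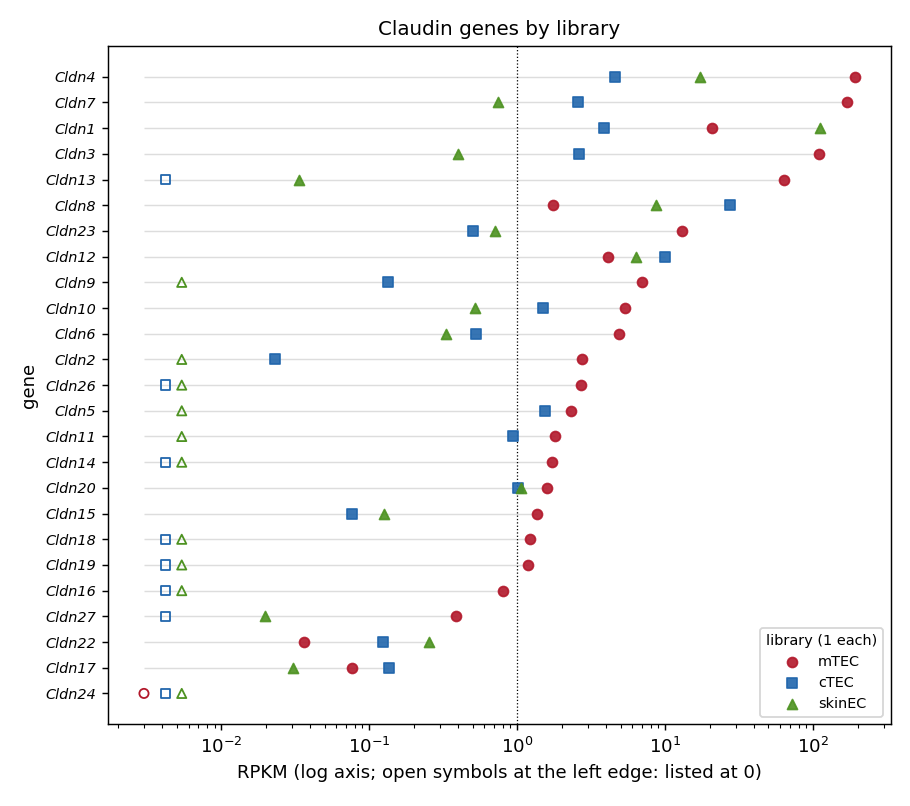
RPKM (log axis) of the 25 claudin genes in the mTEC, cTEC and skinEC library (1 library each, 1 point per library), ordered by their highest value; the dotted line is 1 RPKM and open symbols are genes listed at 0. The mTEC point is rightmost for 19 genes, the cTEC point for 3 (Cldn8, Cldn12 and Cldn17) and the skinEC point for 2 (Cldn1 and Cldn22).

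Most markers of other tissues, like the leading claudins of mTEC, were highest in that library. The 7 gut markers summed to 1374 RPKM in mTEC, 32.2 RPKM in cTEC and 10.4 RPKM in skinEC, and 7 of them in mTEC, 3 in cTEC and 2 in skinEC reached 1 RPKM. The 5 lung and airway markers summed to 149 RPKM in mTEC, 6.54 RPKM in cTEC and 10.95 RPKM in skinEC, with 5 in mTEC, 1 in cTEC and 1 in skinEC at this level. The 4 liver markers summed to 96.0 RPKM in mTEC, 0.400 RPKM in cTEC and 0.538 RPKM in skinEC, with 4 in mTEC, 0 in cTEC and 0 in skinEC at this level. A gut and a lung marker went the other way. Guca2a was at 2.80 RPKM in mTEC, against 3.23 RPKM in skinEC, and Sftpc was at 8.665 RPKM in mTEC, 0.264 RPKM in cTEC and 10.9 RPKM in skinEC, nearly the whole lung sum there. Single genes also made up most of each sum in mTEC. These were Reg3g at 1091 RPKM for gut, Scgb1a1 at 93.6 RPKM for lung and Apoa1 at 65.6 RPKM for liver. Listed at 0 were Guca2a, Nkx2-1 and Alb in cTEC, and Cdx2, Cdhr5, Scgb1a1, Nkx2-1, Alb and Hnf4a in skinEC.

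Blood cell markers were likewise highest in mTEC, and tuft cell markers were so with 1 exception. The 10 leukocyte markers summed to 780 RPKM in mTEC, 6.75 RPKM in cTEC and 2.46 RPKM in skinEC, and 10 of them in mTEC, 3 in cTEC and 1 in skinEC reached 1 RPKM. The 4 erythroid markers summed to 18.2 RPKM in mTEC, 3.66 RPKM in cTEC and 0.325 RPKM in skinEC, with 3 in mTEC, 2 in cTEC and 0 in skinEC at this level. The 6 tuft cell markers summed to 805 RPKM in mTEC, 35.7 RPKM in cTEC and 185 RPKM in skinEC, with 6 in mTEC, 5 in cTEC and 2 in skinEC at this level. The exception was Pou2f3, a tuft cell regulator, at 64.7 RPKM in mTEC, 21.3 RPKM in cTEC and 182 RPKM in skinEC, where it made up nearly all of the tuft sum. None of these markers is listed at 0 in mTEC or cTEC, and Cd3e, Hbb-b1 and Gfi1b are among those listed at 0 in skinEC. The part of such cells or programmes in the claudin levels was not tested.

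Of the 4 genes of the occludin group, 3 were lowest in cTEC. Ocln, which encodes occludin, was at 25.1 RPKM in mTEC, 4.44 RPKM in cTEC and 9.61 RPKM in skinEC. Its neighbour Marveld2, which encodes tricellulin of tricellular contacts, was at 21.3 RPKM in mTEC, 0.594 RPKM in cTEC and 4.38 RPKM in skinEC. Marveld3 was at 9.77 RPKM in mTEC, 0.504 RPKM in cTEC and 5.22 RPKM in skinEC. All 3 were past the rule in mTEC over cTEC, with log2 ratios of 2.26 for Ocln, 3.81 for Marveld2 and 2.84 for Marveld3. Marveld1 was at 10.9 RPKM in mTEC, 15.9 RPKM in cTEC and 32.5 RPKM in skinEC, within 4-fold in each comparison. The angulins Lsr and Ildr1 bring tricellulin to tricellular contacts. Lsr was at 92.6 RPKM in mTEC, 33.4 RPKM in cTEC and 73.6 RPKM in skinEC, and Ildr1 was at 49.8 RPKM in mTEC, 10.9 RPKM in cTEC and 2.11 RPKM in skinEC.

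F11r, which encodes the adhesion molecule JAM-A, was the most abundant member in mTEC. It was at 215 RPKM in mTEC, 29.2 RPKM in cTEC and 63.2 RPKM in skinEC, past the rule over cTEC (log2 ratio 2.84) and not over skinEC (1.75), where 2 of the 3 other scalings put it past the rule. Jam3 was at 4.29 RPKM in mTEC, 2.08 RPKM in cTEC and 0.354 RPKM in skinEC, and Jam2 was under 0.4 RPKM in all 3. Esam, an adhesion molecule of endothelial cells, was at 5.59 RPKM in mTEC, 2.84 RPKM in cTEC and 0.116 RPKM in skinEC. Cldn5, the claudin of the blood-brain barrier, was at 2.30 RPKM in mTEC, against 1.55 RPKM in cTEC, and is listed at 0 in skinEC. The 14 endothelial markers, these 2 genes included, summed to 57.9 RPKM in mTEC, 65.7 RPKM in cTEC and 5.89 RPKM in skinEC, and 11 of them in mTEC, 11 in cTEC and 1 in skinEC reached 1 RPKM. In skinEC 5 of them, Cdh5, Tie1, Emcn, Sox17 and Cldn5, are listed at 0, and in the thymic libraries none is. The part of endothelial cells in these values was not tested.

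Of the 6 plaque scaffold genes, Tjp3 and Cgn were past the rule in a comparison and the other 4 in none. Tjp1, which encodes ZO-1, was at 23.9 RPKM in mTEC, 16.8 RPKM in cTEC and 24.7 RPKM in skinEC. The polarity gene Pard3 was at 16.2 RPKM in mTEC, 28.2 RPKM in cTEC and 39.1 RPKM in skinEC, where it was the most abundant scaffold. Both were above 10 RPKM in every library. Cgnl1, which encodes paracingulin, was at 12.7 RPKM in mTEC, 5.11 RPKM in cTEC and 10.8 RPKM in skinEC. Tjp3, which encodes ZO-3, was at 83.8 RPKM in mTEC, 1.93 RPKM in cTEC and 7.65 RPKM in skinEC. It was 43.4-fold higher in mTEC than in cTEC in RPKM. It overlaps Apba3 in the RefSeq table, so its reads are uncertain, and at 41.5% it held the largest share of the scaffold sum in mTEC. Cgn, which encodes cingulin, was at 25.2 RPKM in mTEC, 19.5 RPKM in cTEC and 2.62 RPKM in skinEC, past the rule over skinEC in mTEC (log2 ratio 2.86) and in cTEC (2.50). With a pseudocount of 5 RPKM neither ratio of Cgn passed.

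**Figure D4:**
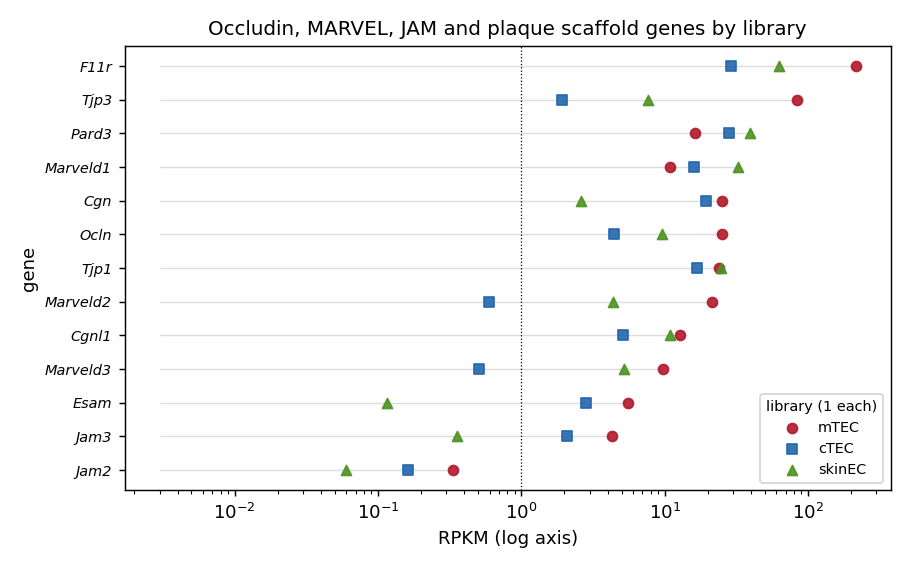
RPKM (log axis) of 13 genes of the occludin, JAM and plaque scaffold groups in the mTEC, cTEC and skinEC library (1 library each, 1 point per library), ordered by their highest value; the dotted line is 1 RPKM. Points of Tjp1 lie close together, while the cTEC point of Tjp3 (1.93 RPKM) lies far left of its mTEC point (83.8 RPKM) and Cgn is lowest in skinEC (2.62 RPKM).

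Connexins were highest as a group in skinEC. The 20 connexins summed to 205 RPKM in mTEC, 31.1 RPKM in cTEC and 444 RPKM in skinEC. The beta class, well known from keratinocytes, summed to 116 RPKM in mTEC, 2.13 RPKM in cTEC and 254 RPKM in skinEC. Gja1, the most widespread connexin, held 22.02% of the connexin sum in mTEC, 70.1% in cTEC and 41.4% in skinEC. It was at 45.2 RPKM in mTEC, 21.8 RPKM in cTEC and 184 RPKM in skinEC, where it was the most abundant member.

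Gjb2 and Gjb6, deafness genes that lie beside each other and Gja3 on chromosome 14, were present in mTEC and skinEC. Gjb2 was at 95.9 RPKM in mTEC, 1.23 RPKM in cTEC and 25.2 RPKM in skinEC, 77.7-fold higher in mTEC than in cTEC in RPKM. Gjb6 was at 13.4 RPKM in mTEC, 0.385 RPKM in cTEC and 24.5 RPKM in skinEC. Both were past the rule over cTEC in mTEC, and neither was past it between mTEC and skinEC, although Gjb2 was higher in mTEC under each of the 3 other scalings. Gjb5, a connexin of skin and placenta, was at 1.51 RPKM in mTEC, against 3.25 RPKM in skinEC, and is listed at 0 in cTEC. Gjb5 and Gjb6 were highest in skinEC, whereas Gjb2 was highest in mTEC.

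Gja4, a connexin of blood vessels and ovarian follicles, was at 29.96 RPKM in mTEC, 0.718 RPKM in cTEC and 1.43 RPKM in skinEC, log2 ratios of 4.17 over cTEC and 3.67 over skinEC. Gja5, also known from vessels, was at 0.945 RPKM in mTEC, against 0.0114 RPKM in cTEC, and is listed at 0 in skinEC. The 6 pericyte and smooth muscle markers summed to 229.6 RPKM in mTEC, 128 RPKM in cTEC and 15.8 RPKM in skinEC, and 6 of them in mTEC, 5 in cTEC and 1 in skinEC reached 1 RPKM. Rgs5, a pericyte marker, was at 114 RPKM in mTEC, 8.01 RPKM in cTEC and 0.0099 RPKM in skinEC, where Des is listed at 0. The list was mixed. Myh11 of smooth muscle was at 53.8 RPKM in mTEC, 102 RPKM in cTEC and 0.111 RPKM in skinEC, and Cspg4 was at 2.34 RPKM in mTEC, 0.654 RPKM in cTEC and 14.9 RPKM in skinEC. Of the 14 endothelial markers, 2 were past the rule in mTEC over cTEC and 0 below it. These were Tek, at 9.40 RPKM in mTEC, 0.676 RPKM in cTEC and 0.165 RPKM in skinEC, and Vwf, at 11.7 RPKM in mTEC, 0.936 RPKM in cTEC and 0.231 RPKM in skinEC. Others were higher in cTEC within the rule, such as Pecam1 at 4.55 RPKM in mTEC, 6.34 RPKM in cTEC and 0.224 RPKM in skinEC. The 8 fibroblast markers summed to 123 RPKM in mTEC, 67.8 RPKM in cTEC and 38.2 RPKM in skinEC, and 6 of them in mTEC, 7 in cTEC and 4 in skinEC reached 1 RPKM. They were mixed as well. In mTEC over cTEC 2 of them, Col1a1 and Thy1, were past the rule as higher and 1, Dpt, as lower. Dpt was at 0.981 RPKM in mTEC, against 25.3 RPKM in cTEC, and is listed at 0 in skinEC. The part of endothelial cells, mural cells and fibroblasts in the connexin levels was not tested.

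The other connexins were low. Gjc1, known from the heart conduction system, was at 2.30 RPKM in mTEC, 5.77 RPKM in cTEC and 4.23 RPKM in skinEC. It was the 1 connexin highest in cTEC. Gjd2, the connexin of neurons and beta cells, was at 2.08 RPKM and Gje1 at 1.78 RPKM in mTEC, and both are listed at 0 in cTEC and skinEC. Gjc3 of myelinating glia was at 0.821 RPKM in mTEC and under 0.2 RPKM elsewhere, and the myelin claudin Cldn11 was at 1.801 RPKM in mTEC, against 0.934 RPKM in cTEC, and is listed at 0 in skinEC. Beside these, 10 melanocyte and glial markers summed to 48.7 RPKM in mTEC, 12.8 RPKM in cTEC and 13.3 RPKM in skinEC, and 7 of them in mTEC, 3 in cTEC and 4 in skinEC reached 1 RPKM. Dct is listed at 0 in cTEC and Mag in skinEC, and the part of these cells was not tested. The rest of the family reached at most a few RPKM. Gjd3 was at 2.11 RPKM in mTEC, 0.296 RPKM in cTEC and 0.513 RPKM in skinEC. Under 1 RPKM in all libraries were 8 connexins, among them Gja5 and Gjc3, the lens gene Gja3, the retina gene Gja10, and Gja6, Gjb1 and Gjd4, between 0.259 and 0.976 RPKM in mTEC. Of the pannexins, Panx1, a channel that releases ATP, was at 28.4 RPKM in mTEC, 25.8 RPKM in cTEC and 28.1 RPKM in skinEC, close to each other, and Panx2 and Panx3 were under 0.2 RPKM.

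**Figure D5:**
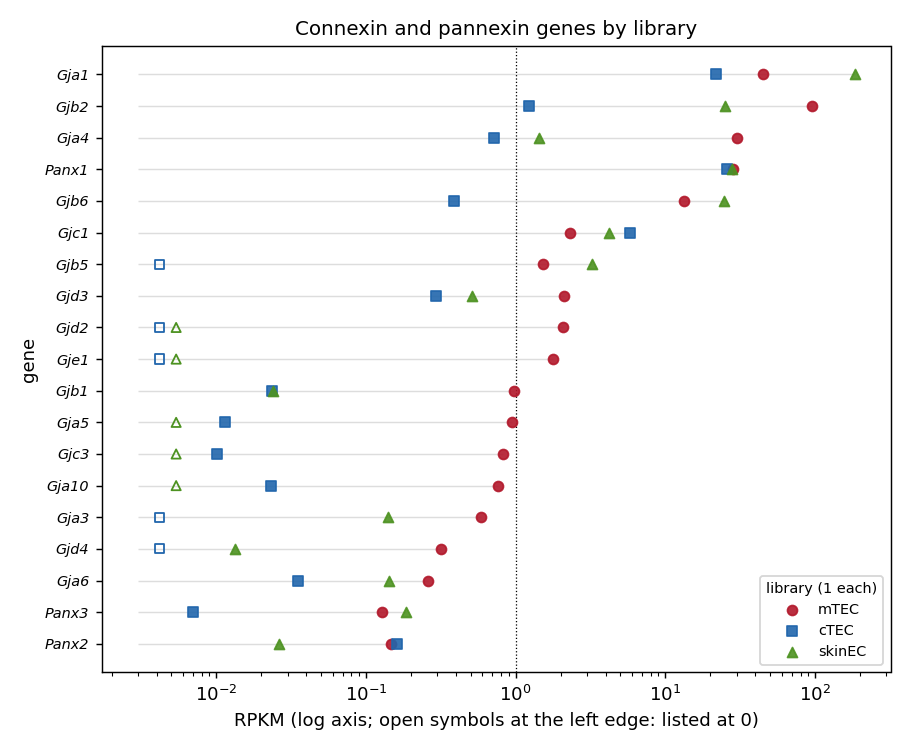
RPKM (log axis) of 16 connexin and 3 pannexin genes in the mTEC, cTEC and skinEC library (1 library each, 1 point per library), ordered by their highest value; the dotted line is 1 RPKM and open symbols are genes listed at 0. Gja1 reaches 184 RPKM in skinEC, Gjb2 and Gja4 reach 95.9 and 29.96 RPKM in mTEC, and the Panx1 points coincide.

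Junction partners and polarity genes outside the members were also read. Of 33 such genes in the table, 4 were higher in mTEC than in cTEC (Ildr1, Cxadr, Prkcz and Crb3) and 3 lower (Pard6g, Mpdz and Amotl1). The 4 are 12.1% of the 33, near the shares of 15.2% of genes that reached 1 RPKM and 11.4% of all symbols, so their count is no result about these genes. The 3 are 9.09%, against 2.69% and 2.01%. Crb3, which encodes an apical polarity protein, was at 30.7 RPKM in mTEC, 0.627 RPKM in cTEC and 14.6 RPKM in skinEC. Cxadr, a virus receptor of the tight junction, was at 14.8 RPKM in mTEC, 1.24 RPKM in cTEC and 56.7 RPKM in skinEC. Amotl1, which encodes an angiomotin, was at 10.1 RPKM in mTEC, 105 RPKM in cTEC and 46.8 RPKM in skinEC. Crb3 and Cxadr were lowest in cTEC, and Amotl1 was highest there. Pard6g, a partner of atypical protein kinase C, was at 15.1 RPKM in mTEC, 84.9 RPKM in cTEC and 67.3 RPKM in skinEC. Over skinEC, 3 of the 33 were higher in mTEC (Ildr1, Magi3 and Amot) and 5 lower (Pard6g, Prkci, Mpdz, Csda and Amotl1), and in cTEC 1 was higher (Amot) and 2 lower (Cxadr and Crb3). In mTEC over skinEC these are 9.09% higher, against 16.8% and 12.5%, and 15.2% lower, against 4.2% and 3.13%. In cTEC over skinEC they are 3.03% higher, against 6.3% and 4.7%, and 6.06% lower, against 5.82% and 4.34%, both close to or under the background.

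The last list held transcription factors, proteases and surface proteins known to act on epithelial junctions. Of 26 such genes, 11 were higher in mTEC than in cTEC (among them Grhl1, Grhl3, Klf4, Klf5, Ovol1, Elf3, Ehf, Cdx1 and Cdx2) and 1, Snai2, was lower. These are 42.3% higher, against 15.2% of genes that reached 1 RPKM and 11.4% of all symbols, and 3.85% lower, against 2.69% and 2.01%. In mTEC over skinEC, 5 were higher (19.2%, against 16.8% and 12.5%) and 2 lower (7.69%, against 4.2% and 3.13%). In cTEC over skinEC, 0 were higher (against 6.3% and 4.7%) and 7 lower (26.9%, against 5.82% and 4.34%). The grainyhead gene Grhl3, needed for the epidermal barrier, was at 20.3 RPKM in mTEC, 0.928 RPKM in cTEC and 22.4 RPKM in skinEC. Cdx1, a regulator of intestinal epithelium, was at 149 RPKM in mTEC, 0.283 RPKM in cTEC and 0.0614 RPKM in skinEC. Elf3, an epithelial ETS factor, was at 93.2 RPKM in mTEC, 5.87 RPKM in cTEC and 2.999 RPKM in skinEC. Grhl3 was alike in mTEC and skinEC, while Cdx1 and Elf3 stood high in mTEC alone. Snai2, a repressor of the Snail family that binds E-boxes, was at 8.35 RPKM in mTEC, 42.5 RPKM in cTEC and 34.4 RPKM in skinEC. Epcam, the gene of the sorting marker, was at 398 RPKM in mTEC, 223 RPKM in cTEC and 142 RPKM in skinEC, and neither it nor Cdh1, the gene of E-cadherin, was past the rule in a comparison.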

How the data were processed

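The deposited table holds 1 RPKM value per gene and library, as its header gives them; the authors made these RPKM values. CASAVA 1.8.2 and the build mm9 are listed by the submitters' processing notes, with no role. The TruSeq version 2 kit named in the labels does not mark strand. The aligner and the gene models: not given in the sources used here. Of the 62 members, 21 overlap another gene in RefSeq (3 a protein-coding one: Tjp3, Cldn20 and Gja6), so their reads are uncertain. RefSeq is on GRCm38.p6, not mm9, so its coordinates are given for the printed promoter windows alone and were not joined to the RPKM values by position.

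Of 22663 lines, those of 47 repeated symbols were reduced to the line with the highest values. All 62 members matched RefSeq by Entrez number. Members and lists were chosen with earlier results of these data known. Log2 ratios of RPKM + 1 understate the change of low genes. With 1 library per population there is no p-value, SD or interval. Members at 10 RPKM or more somewhere, or past the 4-fold rule, are named with values, as is any member at 0 throughout, except for a few genes not reported here; Lsr, Epcam, Cdh1, the low members and the promoters of Cldn7 and Cldn1 were added after their values were seen. A listed 0 can be a failed assignment, so no size of difference is printed against it; such a gene still counts by the rule, on RPKM + 1.

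Depth was the number of reads that made most low values of receptor genes with a single coding length (GENCODE M21) whole, within 0.02 reads. This held for 335 of 431 values in mTEC, 30 of 44 values in cTEC, and 6 of 12 values in skinEC; a multiple of a depth would do so too. The depth search and the rule were tested on simulated data. Python 3.11.15 and pandas 2.3.3 were used. The 8 alternatives changed the pseudocount, the filter, the scaling and the repeated symbols.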

Additional observations from a re-analysis of the deposited data

How the results depend on the processing

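Of 576 recomputed log2 ratios of the 24 members at 10 RPKM or more, 552 stayed on the same side of the 4-fold rule, 13 were no longer past it, 11 newly passed it and 0 past the rule reversed. Removing the filter, a filter at 5 RPKM and summing repeated symbols could not alter these ratios. The 72 unchanged ratios from each of these settings were therefore fixed beforehand. The counts depended on how low values were treated. The share of all genes past the rule was computed in the main setting alone, so the counts under other settings have no background beside them. With a pseudocount of 0.1 RPKM, 29 members were higher in mTEC than in cTEC and 25 higher in mTEC than in skinEC. In cTEC over skinEC 6 were higher. With 5 RPKM these counts were 9, 6 and 0. With every library rescaled to the same sum they were 23, 23 and 3, but this also enlarged the values against the unchanged pseudocount. With sums made equal without the 50 largest genes they were 15, 15 and 1. Members lower in mTEC than in skinEC were 2 under median of ratios scaling. The level of 0.1 RPKM was reached by 40 members in cTEC and 38 in skinEC, and the level of 10 RPKM was reached by 21 members in mTEC, by 9 in cTEC, and by 14 in skinEC. Scaling by the median of ratios moved the median of all genes by 0.27 (mTEC over cTEC) and 0.43 (mTEC over skinEC), and rescaling to the same sum by 0.42 (mTEC over skinEC) and 0.17 (cTEC over skinEC). Removing the filter, or summing rows of one symbol, could change no count of members. A member under 1 RPKM in all libraries cannot pass the rule, and no member symbol is repeated. No paired analysis was possible because each group has 1 library and the result comes from no test. On a gene of 1 kb, values under about 0.05 RPKM rest on fewer than 3 reads.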
